A study of Mus musculus with 12 samples.

Results

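Genes that make, sense and break down extracellular NAD and purine nucleotides were followed in T helper 9 (Th9) cells, the CD4+ T cells that make interleukin-9. The 10 genes, out of 32051 in the expression table, were taken by their symbols: Art2a, Art2b, P2rx7, P2rx4, Entpd1, Nt5e, Cd38, Adora2a, Ada and Nampt. They were chosen by their role and by the measured level of Art2b, which is higher with fatostatin than with DMSO. The fatostatin against DMSO values of all 10 genes, and every fatostatin value of Art2b, are therefore descriptions with no test.

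RNA-seq was done on day 4 in 4 groups with 3 libraries each. All cells began as naive CD4+ T cells from the spleens of C57BL/6J mice. The mice of the study were 6 to 8 weeks old. In every group the cells were activated with anti-CD3 and anti-CD28 and polarized with IL-4 at 10 ng/mL, TGF-β at 1 ng/mL and antibodies that neutralize IL-12 and IFN-γ. The DMSO group received the vehicle. The EpA group received EpA at 10 μM, a cyclic lipopeptide of a fungus found with Ganoderma lucidum. The fatostatin group received fatostatin at 5 μM, an inhibitor of the sterol regulatory element–binding proteins (SREBPs), the transcription factors of lipid synthesis. The fourth group received EpA and fatostatin together. The doses are those of the study's methods. The labels do not say whether the libraries of a group came from separate mice or cultures, so the p-values measure only the spread between these libraries.

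Stressed and activated cells release ATP and NAD. On mouse T cells, the ecto-ADP-ribosyltransferase ART2.2, the product of Art2b, uses extracellular NAD to modify the ATP-gated channel P2X7, which opens the channel and can kill the cell. CD38 consumes the same NAD, while CD39 (Entpd1) and CD73 (Nt5e) cut ATP stepwise to adenosine, which acts through the A2A receptor (Adora2a) until adenosine deaminase (Ada) removes it.

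The libraries held 36607305 to 44375794 reads on genes, a range of 1.21-fold. Values are FPKM, that is reads scaled by the length of the gene and by the reads on genes in the library, so levels can be compared between genes. T cell markers were high in every library, with a summed level of 466.3 to 494.7 FPKM for 5 genes, and Il9 averaged 54.6 ± 3.38 FPKM with DMSO and 640 ± 17.5 with EpA (SD, n = 3). Of the other Th9 markers, Batf had a higher mean with EpA (75.5 with DMSO and 95.3 with EpA). Irf4 (156.2 and 143.4), Gata3 (50.4 and 46.4) and Il4ra (117.8 and 93.0) had lower means. Of the T cell markers, Cd3e (53.3 and 42.3), Cd3g (122.7 and 101.4) and Cd5 (19.96 and 18.0) had lower means with EpA. Cd4 (78.2 and 86.8) and Cd2 (193.9 and 230.4) had higher ones. Among the 6 dendritic cell markers, Siglech and Clec9a were at 0 in every library and the sum was 0.592 to 0.737 FPKM. The 6 macrophage or monocyte markers, 4 of which averaged under 0.1 FPKM, summed to 1.28 to 1.40 with DMSO, 1.27 to 1.78 with EpA, 1.57 to 2.39 with fatostatin and 1.87 to 2.90 with both. Most of this sum was Cd68, which averaged 1.21 with DMSO and 1.63 with fatostatin, and Lyz2 (0.0371 and 0.201) and Cd14 (0.0105 and 0.0367) had higher means as well. Csf1r (0.0166 and 0.0141), Itgam (0.0406 and 0.0275) and Adgre1 (0.0148 and 0.00981) were near 0 and not higher with fatostatin, though Csf1r (0.0238), Adgre1 (0.055) and Cd14 (0.148) were above DMSO with both compounds. The 4 natural killer cell markers summed to 1.56 to 1.79 with DMSO, 0.821 to 0.902 with EpA, 1.37 to 1.499 with fatostatin and 0.683 to 0.768 with both. Klrk1 and Eomes made up this sum and were lower with EpA, while Ncr1 (0.0106 with DMSO and 0.0422 with EpA) and Klrb1c (0.0143 and 0.0221) were near 0 and not lower. Of the 2 CD8 T cell markers, which summed to 6.98 to 10.2 FPKM over all libraries, Cd8a averaged 1.81 with DMSO, 0.802 with EpA, 1.52 with fatostatin and 0.491 with both, so it was lower with EpA, and Cd8b1 averaged 7.25 to 7.63 FPKM. The 5 B cell markers summed to 5.99 to 7.90 with DMSO, 5.24 to 6.22 with EpA, 7.54 to 8.63 with fatostatin and 6.28 to 6.97 FPKM with both. Most of this was Cd79b (6.18, 5.16, 6.92 and 5.50 FPKM in that order), whose means were thus lower with EpA and higher with fatostatin, while Ms4a1 averaged at most 0.0619. The part of other cells in the results was not tested, and in bulk RNA fewer cells with a transcript and less of it per cell cannot be told apart.

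Averaged over the 12 libraries, Nampt was the most abundant of the 10 genes at 33.2 FPKM and ranked above 88.4% of the 13733 genes tested. Ada (8.47), Cd38 (7.45), Nt5e (6.94) and P2rx7 (6.27 FPKM) lay near the middle of all tested genes. P2rx4 (2.22), Entpd1 (1.67), Art2b (1.13) and Adora2a (0.936 FPKM) were lower. Art2a, at 0.116 FPKM, ranked above only 1.93% of tested genes and passed the minimum mean of 0.1 FPKM only because of the groups that received fatostatin.

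**Figure D1:**
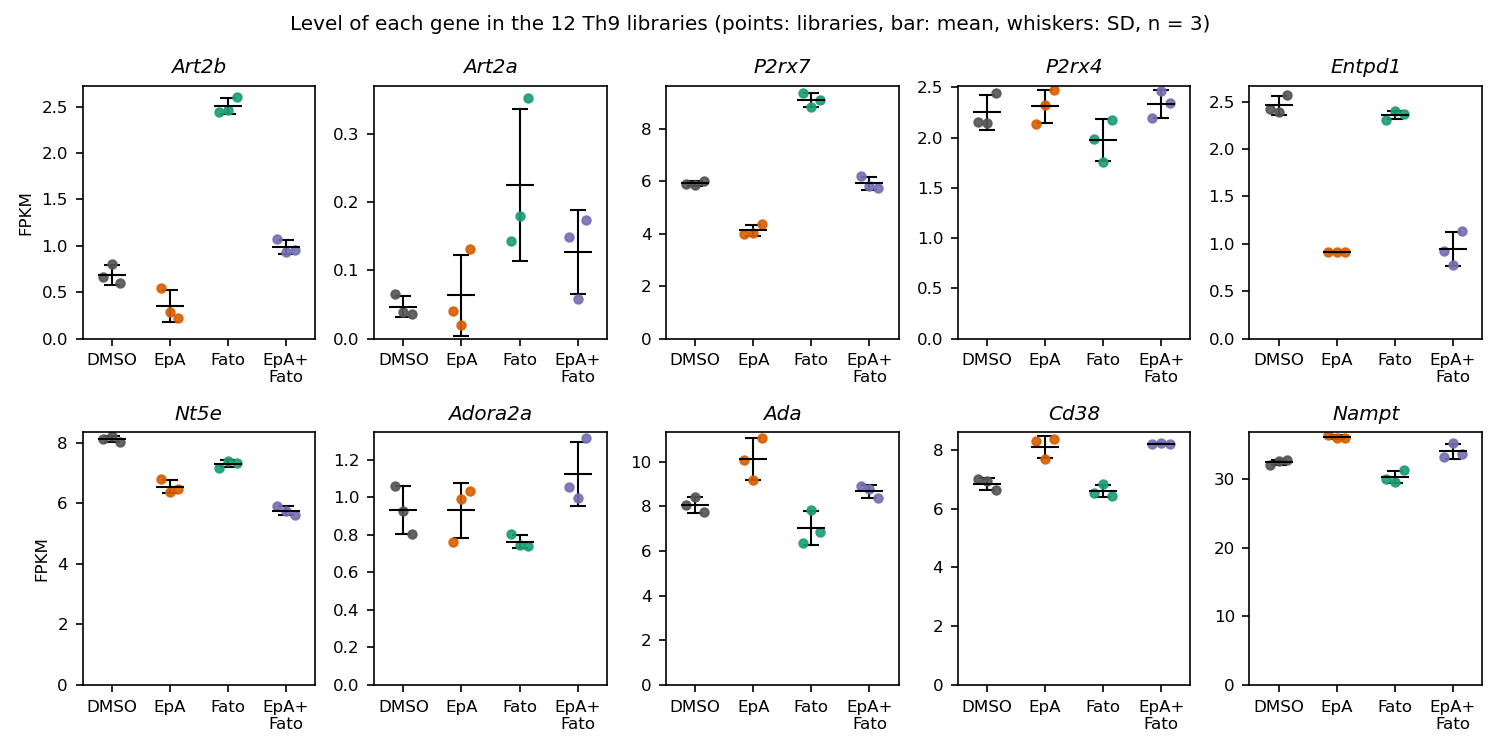
Level of each of the 10 genes in FPKM (y axis, from 0) in the 12 libraries by group (x axis, Fato: fatostatin). Points are libraries, the horizontal bar is the mean and the whiskers are the SD of n = 3. Art2b and P2rx7 are highest with fatostatin and lowest with EpA, Entpd1 is low in both groups with EpA, and Cd38, Ada and Nampt are above their EpA-free partner group in both.

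Art2b encodes the ecto-enzyme that carries ADP-ribose from NAD to P2X7. The gene lies on the minus strand of chromosome 7 at 101576970 to 101585600 (GRCm38), and Art2a lies 16104 bp from it on the same strand. Art2a is annotated as a polymorphic pseudogene, since the C57BL/6 reference has an in-frame stop at codon 161 of 288. The coding sequences, of 864 bases for Art2a and 861 for Art2b, were 89.4% identical over 852 aligned bases, with the longest identical run at 125 bases. A stretch of 60 coding bases from each (coding bases 558 to 617, from the GENCODE transcripts, 5′ to 3′) is shown because it bears on whether reads can be told apart. The 15 differing bases are in capitals.

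Art2a: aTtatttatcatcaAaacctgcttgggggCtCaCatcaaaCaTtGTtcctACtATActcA
Art2b: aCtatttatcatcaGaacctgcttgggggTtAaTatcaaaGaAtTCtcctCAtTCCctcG

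This stretch was picked as the one of 60 aligned coding bases without gaps that has the most differences, so it is not typical. A read over it has several differences by which it can be assigned. Over the whole exons, 5.03% of the 50-base windows of Art2b also occur in Art2a, and 11.8% of those of Art2a occur in Art2b, so a small share of reads could fit both genes.

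Art2b was 0.667, 0.805 and 0.594 FPKM in the DMSO libraries and 0.542, 0.284 and 0.225 FPKM in the EpA libraries. It was 2.45, 2.47 and 2.60 FPKM with fatostatin and 1.07, 0.936 and 0.958 FPKM with both compounds. The order was thus fatostatin, both compounds, DMSO and EpA, and no library of one group overlapped a neighboring group. The closest neighbors were DMSO, with its lowest library at 0.594, and EpA, with its highest at 0.542 FPKM. These levels rested on 69 to 93 reads per library with DMSO, 27 to 61 with EpA, 278 to 307 with fatostatin and 110 to 129 with both.

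As a description, mean Art2b was 3.64-fold higher with fatostatin than with DMSO, and 2.82-fold higher with both compounds than with EpA. With both compounds it was 1.44 times the DMSO mean. The summed macrophage or monocyte markers, mostly Cd68, were also higher with fatostatin, at 1.57 to 2.39 against 1.28 to 1.40 FPKM with DMSO. The mean of the B cell marker Cd79b, given above, was also lower with EpA and higher with fatostatin. The part of these markers in the Art2b result was not tested. Art2b was lower with EpA: the log2 difference between EpA and DMSO was -0.86 ± 0.21 (SE, 95% interval -1.32 to -0.41, limma adjusted p = 0.00931). This test is not independent of the choice of the gene, which used the same DMSO libraries. Its spread is also taken from all 4 groups, the fatostatin libraries included. With a pseudocount of 1 in place of 0.1 this difference was -0.33, and over the alternatives it was -1.15 to -0.33 with an adjusted p of 0.000181 to 0.0576. When only the DMSO and EpA libraries were fitted, the adjusted p was 0.0576, outside the threshold of 0.05. As a description, the log2 difference between both compounds and fatostatin was -1.26. The effect of EpA differed by -0.40 on the log2 scale with against without fatostatin, and by -0.11 when EpA replicate 1, the highest of its group, was left out.

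Art2a was close to the limit of detection. It had 3, 2 and 2 reads with DMSO and 2, 1 and 7 reads with EpA. It had 8, 9 and 18 reads with fatostatin and 8, 3 and 9 reads with both compounds. The fatostatin and DMSO libraries did not overlap, but no fold is given in the text against groups of 3 reads or fewer, and reads shared with the more abundant Art2b were not separated from these counts.

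The 250 bases before and 50 after the RefSeq start sites (GRCm38.p6) were matched for 8 of the 10 genes, in 10 windows, and not for Art2a and Adora2a. The windows of Art2b and P2rx7 are printed because these genes were lower with EpA and higher with fatostatin, and those of Entpd1 because it fell most with EpA alone. All are written 5′ to 3′ on the strand of the gene. The motifs searched on both strands were the sterol regulatory element TCACCCCAC, the E-box CACGTG, the AP-1 site TGANTCA, the cyclic AMP response element TGACGTCA, the xenobiotic response element core GCGTG, the GATA site AGATAA and the STAT6 site, which is TTC and GAA with 4 bases of any kind between them. Capitals mark every match.

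Art2b, chr7:101581112-101581411, minus strand: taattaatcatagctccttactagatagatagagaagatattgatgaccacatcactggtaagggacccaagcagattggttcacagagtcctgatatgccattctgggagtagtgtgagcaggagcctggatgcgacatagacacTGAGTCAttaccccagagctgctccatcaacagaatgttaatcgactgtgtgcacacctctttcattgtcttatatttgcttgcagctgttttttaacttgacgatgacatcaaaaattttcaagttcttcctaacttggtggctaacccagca
P2rx7, first window, chr5:122643677-122643976, plus strand: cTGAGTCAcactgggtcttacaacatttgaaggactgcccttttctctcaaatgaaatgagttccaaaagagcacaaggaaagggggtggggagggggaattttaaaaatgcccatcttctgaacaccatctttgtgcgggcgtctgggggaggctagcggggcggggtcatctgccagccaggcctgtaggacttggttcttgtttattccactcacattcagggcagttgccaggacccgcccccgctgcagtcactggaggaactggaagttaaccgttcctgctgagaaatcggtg
P2rx7, second window, chr5:122650133-122650432, plus strand: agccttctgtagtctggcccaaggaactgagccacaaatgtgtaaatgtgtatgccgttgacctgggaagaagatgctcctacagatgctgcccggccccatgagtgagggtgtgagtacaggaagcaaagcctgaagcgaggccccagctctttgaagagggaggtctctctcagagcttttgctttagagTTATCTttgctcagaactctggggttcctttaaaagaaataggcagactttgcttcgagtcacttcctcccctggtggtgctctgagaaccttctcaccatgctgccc
Entpd1, first window, chr19:40612116-40612415, plus strand: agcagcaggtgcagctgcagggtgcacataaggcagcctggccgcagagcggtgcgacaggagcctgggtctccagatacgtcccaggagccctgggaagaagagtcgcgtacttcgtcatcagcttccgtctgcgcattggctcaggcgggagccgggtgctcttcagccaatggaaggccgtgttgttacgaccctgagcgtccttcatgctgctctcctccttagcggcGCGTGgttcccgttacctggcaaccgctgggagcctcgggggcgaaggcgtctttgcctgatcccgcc
Entpd1, second window, chr19:40659520-40659819, plus strand: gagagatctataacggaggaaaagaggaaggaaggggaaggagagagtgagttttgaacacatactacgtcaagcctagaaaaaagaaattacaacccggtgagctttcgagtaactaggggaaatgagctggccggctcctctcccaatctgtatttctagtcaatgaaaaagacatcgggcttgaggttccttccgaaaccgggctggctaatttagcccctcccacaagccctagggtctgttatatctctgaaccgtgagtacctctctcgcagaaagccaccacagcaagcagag

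An AP-1 match lay 104 bases before the Art2b start and another 249 bases before the first P2rx7 start. The second P2rx7 window held a GATA match at 58 bases before its start, and the first Entpd1 window a xenobiotic response element core at 18 bases before its start. The second Entpd1 window held no match. No window of the 8 genes held the sterol regulatory element, which is in 0.551% of the 32851 promoters of the same length. AP-1 matches occur in 7.81% of these promoters, GATA in 11.2%, the xenobiotic core in 32.4%, the E-box in 7.15%, the STAT6 site in 6.95% and the cyclic AMP response element in 1.79%. The matches are letters in these windows and no measure of binding. The RefSeq start of Art2b is at its start codon, 4439 bp downstream of the 5′ end in the GENCODE annotation, so this window is not upstream of the longest transcript.

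P2rx7 encodes the ATP-gated channel that ART2.2 modifies, on chromosome 5 at 122643911 to 122691432, plus strand. It was 5.90, 5.85 and 6.02 FPKM with DMSO and 3.98, 4.02 and 4.39 FPKM with EpA. It was 9.37, 8.83 and 9.09 FPKM with fatostatin and 6.21, 5.82 and 5.75 FPKM with both compounds. P2rx7 thus had the same order as Art2b except that the group with both compounds lay on the DMSO group, with a ratio of means of 1.00 and overlapping libraries.

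EpA lowered P2rx7 by a log2 difference of -0.51 ± 0.05 against DMSO (SE, adjusted p = 1.13e-05) and of -0.61 ± 0.05 in the presence of fatostatin (adjusted p = 2.72e-06). The effects of EpA in the 2 settings differed by -0.10 on the log2 scale (95% interval -0.24 to 0.04, adjusted p = 0.795). Fatostatin raised P2rx7 in EpA-treated cells by 0.51 ± 0.05 on the log2 scale, or 1.44-fold (adjusted p = 1.97e-05). Without EpA, fatostatin-treated cells had 1.54 times the DMSO mean, given as a description. Each library held at least 944 reads of P2rx7. The means of Cd79b had the same directions, and the part of B cells in the P2rx7 result was not tested.

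Non-overlapping groups that were lower with EpA and higher with fatostatin, each both without and with the other compound, were found in 327 of 13733 tested genes, or 2.38%. Among the 10 genes, Art2b and P2rx7 met this description. Art2b was chosen by its level with fatostatin, so nothing is read from their number. Over the 12 libraries, the Pearson correlation of P2rx7 with Art2b on the log2 scale was 0.94, at rank 47 of the 10297 genes that averaged 1 FPKM or more. The 5 genes most like Art2b by this measure were Abca5 (0.98), Gm10505 (0.97), Hivep3 (0.97), Foxp1 (0.96) and Niban1 (0.96). These correlations share libraries and the 4 group means, and are descriptions.

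P2rx4, a related ATP-gated channel 16111 bp from P2rx7 on the same strand, did not share this pattern. Its libraries were 2.15 to 2.45 FPKM with DMSO, 2.14 to 2.47 with EpA, 1.76 to 2.18 with fatostatin and 2.20 to 2.47 with both compounds. The groups overlapped in the comparison with DMSO, and the log2 difference between EpA and DMSO was 0.04 (95% interval -0.16 to 0.23, adjusted p = 0.807). Between both compounds and fatostatin it was 0.24 (adjusted p = 0.0691).

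**Figure D2:**
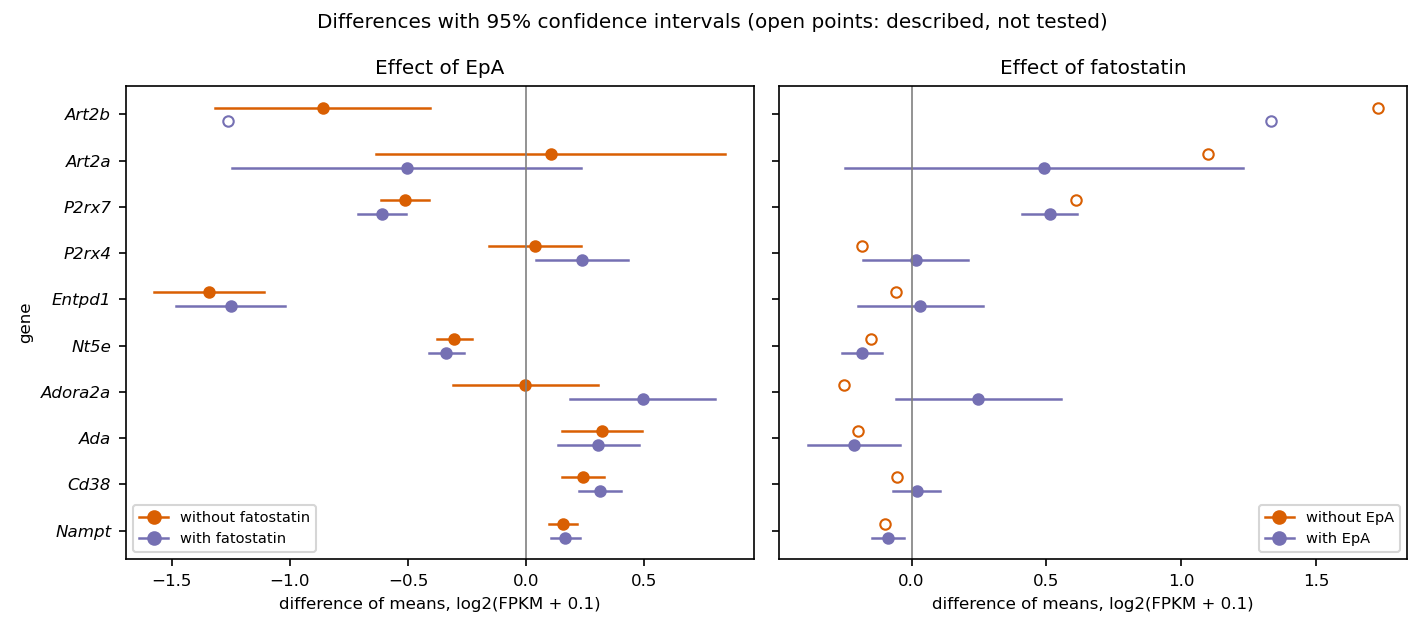
Difference of group means on the log2(FPKM + 0.1) scale (x axis) for each gene (y axis), for EpA without and with fatostatin (left) and for fatostatin without and with EpA (right). Lines are 95% confidence intervals from limma, and open points are descriptions without a test. For Art2b and P2rx7 the points lie left of 0 with EpA and right of 0 with fatostatin, and for Entpd1 they lie far left of 0 only on the left.

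Entpd1 encodes CD39, which removes phosphates from ATP and ADP (chromosome 19, 40612366 to 40741602, plus strand). It was 2.42, 2.39 and 2.58 FPKM with DMSO and 0.915, 0.908 and 0.910 FPKM with EpA. It was 2.31, 2.40 and 2.37 FPKM with fatostatin and 0.919, 0.776 and 1.14 FPKM with both compounds. The libraries thus fell into 2 levels that followed the presence of EpA.

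EpA lowered Entpd1 to 0.370 times the DMSO mean, a log2 difference of -1.34 ± 0.11 (SE, adjusted p = 4.27e-06). With fatostatin present the ratio was 0.400 and the log2 difference -1.25 ± 0.11 (adjusted p = 5.95e-06). This was the largest change with EpA among the 10 genes without fatostatin. Fatostatin added to EpA gave a log2 difference of 0.03 (95% interval -0.20 to 0.26, adjusted p = 0.882). Markers of regulatory T cells, which carry much CD39, were in the table, and 3 of the 5 passed downward with EpA, beside 13.1% of all tested genes: Foxp3 by -0.60 (adjusted p = 0.00152), Ikzf2 by -0.51 (adjusted p = 0.00376) and Lrrc32 by -0.24 (adjusted p = 0.0438). The other 2, Il2ra and Tnfrsf18, rose, and the sum of the 5 was 763.2 to 775.1 FPKM with DMSO, 963 to 967.8 with EpA, 802.7 to 831.1 with fatostatin and 985.6 to 1018 with both. The natural killer cell markers Klrk1 and Eomes, and Cd8a, given above, were also lower with EpA. The part of any of these in the lower levels of Entpd1 and Art2b with EpA was not tested.

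Nt5e, which encodes CD73 and makes adenosine from AMP (chromosome 9, 88327197 to 88372092, plus strand), was lower in every group than with DMSO. It was 8.12, 8.21 and 8.03 FPKM with DMSO and 6.80, 6.39 and 6.49 FPKM with EpA. It was 7.19, 7.41 and 7.32 FPKM with fatostatin and 5.91, 5.75 and 5.62 FPKM with both compounds. The 4 groups did not overlap, and the level with both compounds was 0.709 times that with DMSO.

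The log2 difference of Nt5e between EpA and DMSO was -0.30 ± 0.03 (adjusted p = 5.89e-05), and between both compounds and fatostatin -0.34 ± 0.03 (adjusted p = 2.3e-05). Fatostatin lowered it further in EpA-treated cells, by -0.18 ± 0.03 (adjusted p = 0.00355). With fatostatin, Nt5e was thus on the opposite side of DMSO from Art2b and P2rx7, while all 3 genes fell with EpA.

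Adora2a, the adenosine receptor that raises cyclic AMP in T cells, was 1.06, 0.927 and 0.804 FPKM with DMSO and 0.764, 0.992 and 1.03 FPKM with EpA. It was 0.802, 0.746 and 0.742 FPKM with fatostatin and 1.05, 0.998 and 1.31 FPKM with both compounds. The DMSO and EpA groups overlapped, with a log2 difference of -0.00 (95% interval -0.31 to 0.30, adjusted p = 0.987). With fatostatin present, EpA raised Adora2a by 0.49 ± 0.14 (adjusted p = 0.0202), a call that was lost (adjusted p = 0.0563, 0.0571 and 0.0822) without fatostatin replicate 2, without fatostatin replicate 3 and without replicate 3 of both compounds. The difference between the 2 effects, 0.50 (95% interval 0.06 to 0.93), had an adjusted p of 0.562.

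Ada, the enzyme that turns adenosine into inosine, was 7.73 to 8.41 FPKM with DMSO and 9.20 to 11.1 FPKM with EpA. It was 6.37 to 7.84 FPKM with fatostatin and 8.36 to 8.90 FPKM with both compounds. EpA raised it by 0.32 ± 0.08 on the log2 scale (adjusted p = 0.00991) and by 0.30 ± 0.08 with fatostatin present (adjusted p = 0.0119). The 3 genes of the adenosine axis thus differed, as EpA lowered the enzyme that makes adenosine and raised the one that removes it, while the receptor gave no call without fatostatin.

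Cd38, an ectoenzyme that breaks down NAD, was 6.62 to 6.99 FPKM with DMSO and 7.68 to 8.37 FPKM with EpA. It was 6.43 to 6.84 FPKM with fatostatin and 8.20 to 8.24 FPKM with both compounds. EpA raised Cd38 by 0.24 ± 0.04 on the log2 scale (adjusted p = 0.00105), and by 0.31 ± 0.04 with fatostatin (adjusted p = 0.00015). Fatostatin added to EpA gave 0.02 (95% interval -0.07 to 0.11, adjusted p = 0.806). The antisense gene Gm16015 overlaps Cd38 but shares no exon bases with it.

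Nampt, the rate-limiting enzyme of NAD salvage, was 32.1 to 32.7 FPKM with DMSO, 36.0 to 36.4 with EpA, 29.6 to 31.4 with fatostatin and 33.2 to 35.3 with both compounds. EpA raised it by 0.15 ± 0.03 on the log2 scale (adjusted p = 0.00147), and by 0.17 ± 0.03 with fatostatin present (adjusted p = 0.000823). These are the smallest of the changes that passed with EpA among the 10 genes. With fatostatin added to EpA the difference was -0.09 ± 0.03 (adjusted p = 0.0514), just outside the threshold.

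By count, 7 of the 10 genes passed the test in EpA against DMSO, where 27.4% of all tested genes passed. Of these, 3 rose (Ada, Cd38 and Nampt, with 14.3% of all genes) and 4 fell (Art2b, P2rx7, Entpd1 and Nt5e, with 13.1%). Only Art2b and Entpd1 also changed by at least 1.5-fold, as did 3.38% of all genes. The DMSO libraries in the Art2b test were also used in its choice. Its call was lost when only the DMSO and EpA libraries were fitted. The median log2 difference of the 10 genes was 0.02 beside 0.00 for all genes, since the directions were mixed.

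With fatostatin present, EpA gave 7 calls among the 9 genes other than Art2b (29.5% of all genes), in which Adora2a, Ada, Cd38 and Nampt rose and P2rx7, Entpd1 and Nt5e fell. The median was 0.17 beside 0.01 for all genes. Fatostatin added to EpA gave 2 calls among the 9 (16.0% of all genes), P2rx7 upward and Nt5e downward, and the median was 0.02 beside 0.01 for all genes. The effects of EpA and of fatostatin on DMSO cells share the DMSO libraries.

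The test of whether fatostatin changes the effect of EpA gave 0 calls among the 9 genes by limma (0.0437% of all genes). These 9 genes, here and in the counts and medians above, include Art2a. It was tested only because of its level in the groups with fatostatin, and it gave no call. Adora2a alone had an unadjusted p below 0.05, beside 7.89% of all genes, and voom on recovered reads also gave 0 calls. As a description, 6 of the 10 genes had non-overlapping fatostatin and DMSO libraries, beside 31.3% of all genes. The choice of Art2b used this contrast and Art2a passed the minimum mean through it, so nothing is read from this count. Art2a, Art2b and P2rx7 were above DMSO, and Nt5e, Adora2a and Nampt were below it.

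Of 100 further genes of the pathway in 10 lists, 99 were in the table and 77 were tested. In EpA against DMSO, 27 of the 77 passed, or 35.1% beside 27.4% of all genes, 12 upward and 15 downward. In both compounds against EpA 17 passed, or 22.1% beside 16.0% of all genes, 13 upward and 4 downward. In both compounds against fatostatin 31 passed, or 40.3% beside 29.5% of all genes, 16 upward and 15 downward. For the first and second of these comparisons the medians were -0.01 and 0.03 on the log2 scale. In fatostatin against DMSO, 19 of them passed, 13 upward (7.69% of all tested genes) and 6 downward (6.31%).

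**Figure D3:**
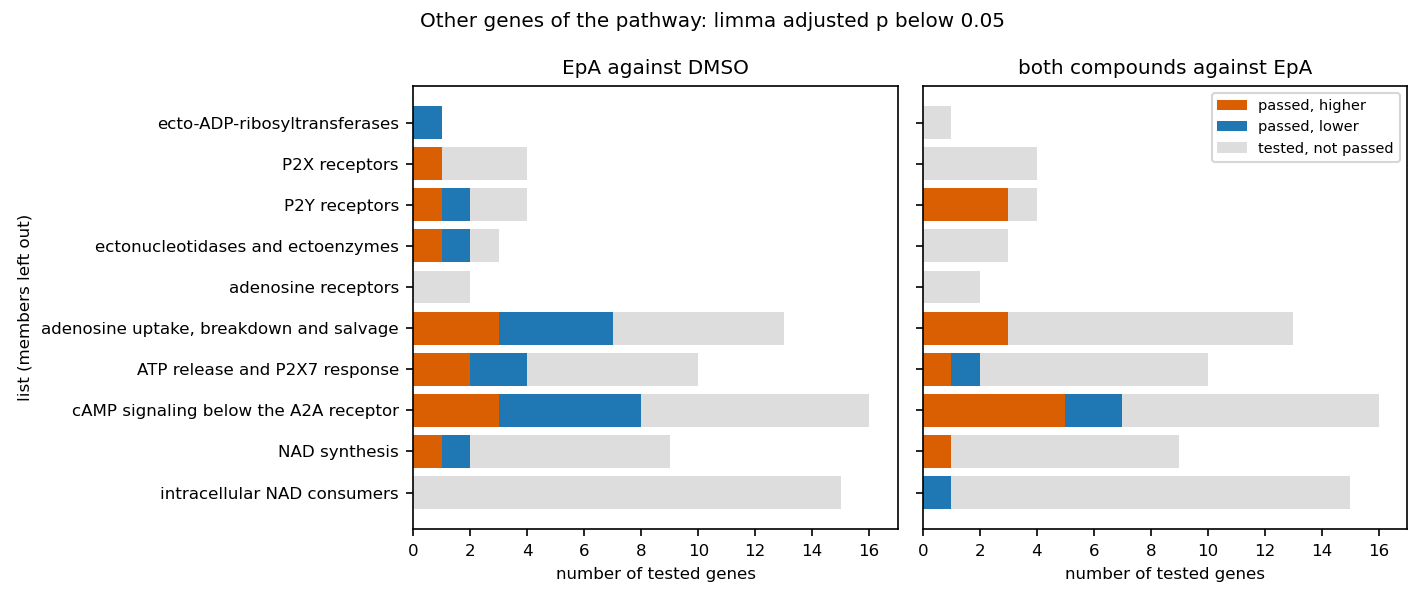
Number of tested genes (x axis) in each list of pathway genes other than the 10 genes of the main account (y axis) that passed the limma test upward or downward or did not pass, for EpA against DMSO (left) and both compounds against EpA (right). In EpA against DMSO the lists of adenosine handling and of cAMP signaling hold 7 and 8 genes that passed, and 0 of the 15 intracellular NAD consumers did, where 27.4% of all tested genes passed.

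Of the other ecto-ADP-ribosyltransferases, Art4 was the only one tested. It averaged 1.71 FPKM with DMSO and 1.08 with EpA, a log2 difference of -0.62 (adjusted p = 0.00518), and 1.80 with fatostatin, a difference of 0.05 (adjusted p = 0.857). Art1, Art3 and Art5 were below the minimum mean. Art4 thus fell with EpA as Art2b did, and the fatostatin libraries of Art4 overlapped those with DMSO.

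Among 4 tested P2X receptors beyond P2rx7 and P2rx4, P2rx2 rose with EpA from 0.202 to 0.515 FPKM (log2 difference 1.02, adjusted p = 0.0014). P2rx5 (-0.33, adjusted p = 0.495) and P2rx3 (-0.16, adjusted p = 0.743) gave no call. All 3 were far below P2rx7 in level. Among the 4 tested P2Y receptors, which signal through G proteins, P2ry1 averaged 3.16 FPKM with DMSO, 1.81 with EpA, 4.38 with fatostatin and 2.47 with both.

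The effects on P2ry1 had the same signs as those on P2rx7, but its level with both compounds lay below DMSO. Its log2 differences were -0.77 for EpA against DMSO (adjusted p = 4.49e-06), 0.46 for fatostatin against DMSO (adjusted p = 0.000425), 0.43 for both compounds against EpA (adjusted p = 0.000655) and -0.80 for both compounds against fatostatin (adjusted p = 2.99e-06). P2ry2 rose with EpA by 0.70 from a low level (adjusted p = 0.0306). P2ry10, a lysophosphatidylserine receptor and at 120.9 FPKM with DMSO the most abundant of these receptors, rose by 0.19 with fatostatin added to EpA (adjusted p = 5.63e-05).

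Of the ectoenzymes, Dpp4, which encodes CD26, fell with EpA from 4.21 to 2.52 FPKM (log2 difference -0.72, adjusted p = 6.25e-05) and gave 0.24 with fatostatin added to EpA (adjusted p = 0.0709). Enpp2, the secreted lysophospholipase D autotaxin, rose with EpA by 0.55 (adjusted p = 0.0156). Dpp4 and Ada moved in opposite directions with EpA, and a link between them was not tested. Adora2b and Adora3, the other tested adenosine receptors, gave no call in EpA against DMSO (0.05 and -0.24, adjusted p = 0.825 and 0.509).

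Of 13 tested genes of adenosine uptake, breakdown and salvage, 3 rose and 4 fell with EpA, beside 14.3% and 13.1% of all tested genes. Slc28a2, a transporter that concentrates purine nucleosides in the cell, went from 8.37 to 6.33 FPKM (log2 difference -0.40, adjusted p = 8.34e-06) and rose by 0.24 with fatostatin added to EpA (adjusted p = 0.000605). Ahcy, which splits S-adenosylhomocysteine into adenosine and homocysteine, rose with EpA by 0.13 (adjusted p = 0.000369). Ampd2, an AMP deaminase, rose by 0.26 with fatostatin added to EpA (adjusted p = 0.00373).

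Of 10 tested genes of ATP release and the P2X7 response, 2 rose and 2 fell with EpA, beside 14.3% and 13.1% of all tested genes. Those that rose were Panx1, a channel for ATP, by 0.25 (adjusted p = 0.00137), and Vdac1, a mitochondrial channel, by 0.21 (adjusted p = 1.77e-05). Casp1, the inflammasome protease, fell by 0.40 with fatostatin added to EpA (adjusted p = 0.00312). Transcript levels say nothing of channel opening.

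Of 16 tested genes of cAMP signaling, the pathway below the A2A receptor, 3 rose and 5 fell with EpA, beside 14.3% and 13.1% of all tested genes. Crem, a transcription factor induced by cAMP, rose from 21.0 to 32.4 FPKM with EpA (log2 difference 0.63, adjusted p = 5.73e-09), and by 0.71 with fatostatin present (adjusted p = 1.6e-09). The cAMP phosphodiesterases differed: Pde7a rose by 0.42 with EpA (adjusted p = 3.7e-06), and Pde3b fell by 0.49 (adjusted p = 7.07e-07). Pde7a also rose, by 0.30, with fatostatin added to EpA (adjusted p = 7.49e-05).

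Of 9 tested genes of NAD synthesis other than Nampt, Nadk2, the mitochondrial NAD kinase, rose with EpA by 0.24 (adjusted p = 0.00036), and Slc25a51, the mitochondrial NAD transporter, fell by 0.08 (adjusted p = 0.026). Nmnat1, the nuclear enzyme of the last step to NAD, rose with fatostatin by 0.50 (adjusted p = 0.000124) and by 0.21 with fatostatin added to EpA (adjusted p = 0.0289). Of the 15 intracellular NAD consumers, 0 passed in EpA against DMSO by limma on FPKM, beside 27.4% of all tested genes, 3 had an unadjusted p below 0.05, and voom on recovered reads gave 2 calls. Parp9, an ADP-ribosyltransferase partner, fell by 0.15 with fatostatin added to EpA (adjusted p = 0.00671), and Parp1 (0.03, adjusted p = 0.273), Tnks2 (0.08, adjusted p = 0.0587) and Sirt7 (-0.06, adjusted p = 0.112) gave no call in EpA against DMSO. With fatostatin present, EpA gave 4 calls among the 15 (29.5% of all genes), and these 4 are named after their values were seen. Parp1 rose by 0.07 (adjusted p = 0.0273), Tnks2 by 0.09 (adjusted p = 0.0441) and Sirt4 by 0.28 (adjusted p = 0.0341), and Parp2 fell by 0.15 (adjusted p = 0.00385).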

How the data were processed

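RNA-seq was analyzed in 12 libraries of mouse Th9 cells, grouped by the treatment in the labels. The deposited values are FPKM, which the authors made by trimming reads with Trim Galore, aligning them with HISAT2 to GRCm38, counting per gene by featureCounts and then scaling for gene length and depth. The annotation release and the use of strand are not given in the sources used here. The table had 32352 lines for 32051 genes, and the 301 repeats carried the same values. 0 columns belonged to no sample. With GENCODE exon lengths (99.9% of genes), 98.1% to 98.3% of the values checked in a library were whole reads within 0.02 read, which gave the read numbers. Values of 0 and the genes with the most reads, Nampt among them, were not part of this check. More genes had 2 reads than 1, so both mates seem to be counted, and reads are not independent molecules.

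Genes that averaged 0.1 FPKM or more were tested on log2(FPKM + 0.1) with limma 3.58.1 (R 4.3.3), as 1 fit of 4 group means with an intensity trend. Fold changes on this scale understate those of low genes. p-values are two-sided and Benjamini-Hochberg adjusted over the 13733 genes tested, and a gene passed at an adjusted p below 0.05. The average effect of EpA, used only in the list of alternatives, is the mean of its effects without and with fatostatin, and for Art2b it includes libraries that the choice of the gene used. The fit was also run on simulated data in which only genes with many reads were changed. That run says nothing of genes with few reads, such as Art2a and Art2b. The members, the gene lists and the tests were chosen with earlier results of these data known. The genes named were the 10 genes, the list genes that averaged 1 FPKM or more past the test and a 1.5-fold change, the 2 genes of each list with the smallest adjusted p in EpA against DMSO and in both compounds against EpA, and the 5 genes most like Art2b, but 2 genes of the lists are not reported here. Foxp3, Ikzf2 and Lrrc32 are from the marker lists. Alternatives were other pseudocounts, minimum means, scalings, empirical Bayes options, voom on recovered reads, a replicate block, a fit of only the groups compared and leaving out each library. Promoter windows came from RefSeq, and the coding sequences, aligned with Biopython 1.88, from GENCODE M21.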

Additional observations from a re-analysis of the deposited data

How the results depend on the processing

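Of the values with a test or a description for single genes, 1281 kept their direction and their side of the threshold, 15 passed only under an alternative, 4 lost the call, 17 changed sign and 8 moved. With a change of at least 1.5-fold required as well, 2 genes were called in EpA against DMSO, 0 in both compounds against EpA and 2 in both compounds against fatostatin. For the average effect of EpA, Entpd1 was called. Art2b is left out there, because its choice used the fatostatin libraries. With voom on recovered reads, 4 of 9 genes passed in both compounds against EpA, against 2 in the fit reported. With a pseudocount of 1, the log2 difference of Art2b between fatostatin and DMSO was 1.05 in place of 1.73, as a larger pseudocount shrinks low values.

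None of the values that changed sign had a call in the fit reported. P2rx4 in both compounds against EpA was -0.00287 with median ratio scaling, and Adora2a in EpA against DMSO was 0.00789 with voom. Leaving out each library in turn gave, on the log2 scale, -0.18 to 0.30 for Art2a, -0.00981 to 0.0969 for P2rx4 and -0.10 to 0.12 for Adora2a in EpA against DMSO. In both compounds against EpA it gave -0.0375 to 0.062 for P2rx4, -0.0976 to 0.151 for Entpd1 and -0.0193 to 0.0414 for Cd38. For the change that fatostatin makes to the effect of EpA it gave -0.0384 to 0.211 for Entpd1, -0.082 to 0.066 for Ada and -0.0148 to 0.0359 for Nampt. The number of genes that passed without 1 library was 7, Art2b included, in EpA against DMSO. It was 2 to 3 in both compounds against EpA and 6 to 7 in both compounds against fatostatin, where Art2b was not counted.

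The replicate numbers did not pair the libraries: over 18 pairs with the same number the correlation of deviations was -0.09 to 0.11, and 3 of 12 libraries correlated best with their own number. With the replicate block the genes passing in EpA against DMSO went from 3759 to 3660 of all tested, P2rx4 passed in both compounds against fatostatin (adjusted p = 0.0486), and no other of the 10 genes changed its call. Depth limits Art2a, which had at most 18 reads in a library.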
